A study of Mus musculus with 2 samples.

Results

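Non-classical monocytes were picked out of a pooled single-cell library of the mouse heart by a rule on raw counts of UMIs, the molecular tags that each stand for 1 captured transcript. A barcode was a member when it held Csf1r, at least 2 of the 4 genes Ace, Treml4, Spn and Itgal, fewer than 10 UMIs of C1qa, C1qb and C1qc together, fewer than 3 of Ly6c2 and Chil3 together, and 0 of Cd209a, Pdgfra, Cdh5, Cd3e, Cd3d and Cd3g. This gave 93 of 9369 barcodes (0.993%, exact binomial 95% interval 0.802 to 1.21). The members held 439379 UMIs in all, and the lowest, median and highest member held 2576, 4272 and 12362. The library came from heart cells other than cardiomyocytes, isolated from 3 control mice and 4 Nts knockout mice 7 days after TAC (transverse aortic constriction, an operation that narrows the aorta and raises the load on the left ventricle). Per the labels, hearts were perfused and digested, the cells of each mouse were marked with a hashing antibody, and cells sorted as live (calcein-AM positive, DAPI negative) were loaded as 1 pool on a 10x 3′ kit. All mice had TAC and were labelled 6 to 8 weeks old. The genotype entry of the pool reads WT although its title names control and knockout mice, and the strain, the knockout allele and its driver are not stated in the labels. No cell could be assigned to a mouse or genotype here, since the hashtag library was not analysed here. Every comparison below is therefore between kinds of cells in 1 library, with no replicate and no test.

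Monocytes are blood leukocytes of the myeloid line. Classical monocytes carry Ly6C and CCR2 and leave the blood for inflamed tissue, whereas non-classical monocytes carry little Ly6C, depend on the CSF1 receptor and the nuclear receptor NR4A1, and crawl along the inside of vessels with the integrin LFA-1, whose alpha chain is encoded by Itgal. Ace encodes angiotensin-converting enzyme, Spn the sialoglycoprotein CD43, and Treml4 a receptor of the TREM family.

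The members' levels were set beside those of 173 classical monocytes of the same library. These had the same limits on Csf1r, C1q and lineage genes, but at least 3 UMIs of Ly6c2 and Chil3 together. Ace, Treml4, Spn and Itgal were not limited in them, and 36 of the 173 met every other condition of the members. Levels are in CPM, the UMIs of a gene summed over a set of cells and scaled to 1000000 UMIs of the set, with exact Poisson 95% intervals in parentheses. The interval of a fold covers counting error only, and cells are not replicates. The genes of the rule describe the choice of members and support nothing. Ace was at 409.7 CPM (352 to 474) in members and 50.6 CPM (37.8 to 66.4) in classical monocytes. The other positive genes were Treml4 (364 against 34.1 CPM), Spn (275 against 33.1 CPM) and Itgal (642 against 109 CPM). Ly6c2 was at 41.0 against 1105 CPM and Chil3 at 41.0 against 1169 CPM, again by choice. Csf1r, of which both sets had to hold at least 1 UMI, was at 671 against 430.4 CPM. Among the 4 positive genes, Itgal was detected in 87 members, Ace in 78, Treml4 in 70 and Spn in 58. Of the 93 members, 34 held all 4, 39 held 3 and 20 held exactly 2. The C1q genes were at 0 in 51 members and reached at most 8 UMIs in 1 cell, and Ly6c2 with Chil3 summed to 0 in 66 members, 1 in 18 and 2 in 9.

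Members close to a threshold were set beside cells just outside it. Eno3, a gene the rule did not use, was at 157 CPM in the 20 members with exactly 2 positive genes and at 16.9 CPM in the 51 cells that met every other condition with 1. It was at 717 CPM in the members with 3 and at 626 CPM in those with all 4. At the Ly6c2 and Chil3 limit, Eno3 was at 261 CPM in the 9 members with 2 UMIs and at 147 CPM in the 12 otherwise eligible cells with 3 to 5. Those 12 are among the 173 classical monocytes. The 39 cells that failed only for lack of Csf1r had 111 CPM of Eno3 and 727 CPM of Nkg7, a cytotoxic granule gene of natural killer cells. A single cell failed only on a C1q sum of 10 to 20, and had 7 UMIs of Eno3, or 1058 CPM.

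Markers that the rule did not use were set beside the name as a description, since they come from the contrast that chose the members. Of 11 further non-classical monocyte markers, 9 were at least 2-fold higher in the members, as were 7.45% of all measured genes, namely Fcgr4, Nr4a1, Adgre4, Pglyrp1, Eno3, Ear2, Gngt2, Cd300e and Dusp16. The others were Cx3cr1 (log2 ratio 0.92), the fractalkine receptor, and Clec4a1 (log2 ratio 0.10). Of 10 further classical markers, 8 were at least 2-fold lower, as were 8.15% of all measured genes, among them Ccr2, F13a1, Vcan, Gm9733, Fn1 and Ms4a4c, while Plac8 and Hp had log2 ratios of -0.41 and -0.71. Vcan, the proteoglycan versican, had a log2 ratio of -2.46. Fcgr4, which belongs to the marker set given with the name, was at 157 CPM (122 to 199) in members and 40.9 CPM (29.5 to 55.3) in classical monocytes. Macrophages held it too, at 118 CPM. A single member's UMIs of Fcgr4 ran from 0 through a median of 0 to 5. In a clustering of all barcodes, 88 of the 93 members (94.6%) and 160 of the 173 classical monocytes (92.5%) lay in the same cluster of 396 cells, so the unsupervised grouping at that resolution did not separate the pair.

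Some members also carried genes of another lineage. In all, 12 members and 9 classical monocytes held at least 30 UMIs of fibroblast markers, 10 of S100a8 with S100a9, 5 of the cytotoxic genes Nkg7, Gzma and Prf1, or 5 of the B cell gene Cd79a. The fibroblast markers reached 225, 262, 304 and 451 UMIs in 4 members against a median of 4 in the others. The neutrophil genes S100a8 and S100a9 together reached 33, 130, 182, 206, 210 and 262 UMIs in 6 members, which held 97.5% of the members' UMIs of that pair. The natural killer genes reached 194 UMIs in 1 member, and Cd79a reached 5 and 21 UMIs in 2. A doublet caller named 2 of the 93 members, 3 of the classical monocytes and 357 of all barcodes. No barcode was removed for the values given, and named genes that moved by over 1.5 times without these 12 members and 9 classical monocytes are given both ways. Vcan, for one, moved to a log2 ratio of -4.79 without them, and Gm9733 moved from -1.09 to just under the 2-fold mark. Markers of other lineages that the rule did not use and that were at 0 in the members included Flt3 and Ccl17 of type 2 dendritic cells, Xcr1 and Clec9a of type 1 dendritic cells, Ly6g and Camp of neutrophils, Cd8a and Cd4 of T cells, and Hbb-bs and Hba-a1 of erythroid cells. Of these, Ccl17, Xcr1, Ly6g, Camp, Cd8a, Hbb-bs and Hba-a1 were at 0 in classical monocytes too. The macrophage gene Mrc1 was at 1 UMI, but Adgre1 and Trem2 of the same list had 23 and 13 UMIs. Both were at least 2-fold lower than in classical monocytes. Csf3r of the neutrophil list had 25 UMIs over 20 members, and Ighm of the B cell list 54 UMIs over 30 members. Retnlg, Mmp9 and Cxcr2 of the neutrophil list had 58, 5 and 4 UMIs. Lck, Trbc2 and Trac of the T cell list had 3, 2 and 1. Other markers of the dendritic lists were present: Itgax and Wdfy4 were 100.5-fold and 2.34-fold higher in members than in classical monocytes, with 43 and 17 UMIs, and Irf8 had 58 UMIs. Their source was not tested.

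Across the 5251 genes with at least 30 UMIs over both sides, the rule's own genes left out, 391 (7.45%) were at least 2-fold higher and 428 (8.15%) at least 2-fold lower in non-classical monocytes, called higher and lower below. The median log2 ratio over all of them was -0.03. A difference of at least 4-fold was seen for 84 genes on the higher side and 67 on the lower side. The members were chosen on this same contrast, so these counts describe 2 chosen sets of cells. Of the 391 higher genes, 65 (16.6%) had a higher level in fibroblasts than in the members, against 43.5% of all measured genes. The part of free RNA in these was not tested. For 25 of the 391 higher genes at least 50% of the members' UMIs lay in 1 cell.

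**Figure D1:**
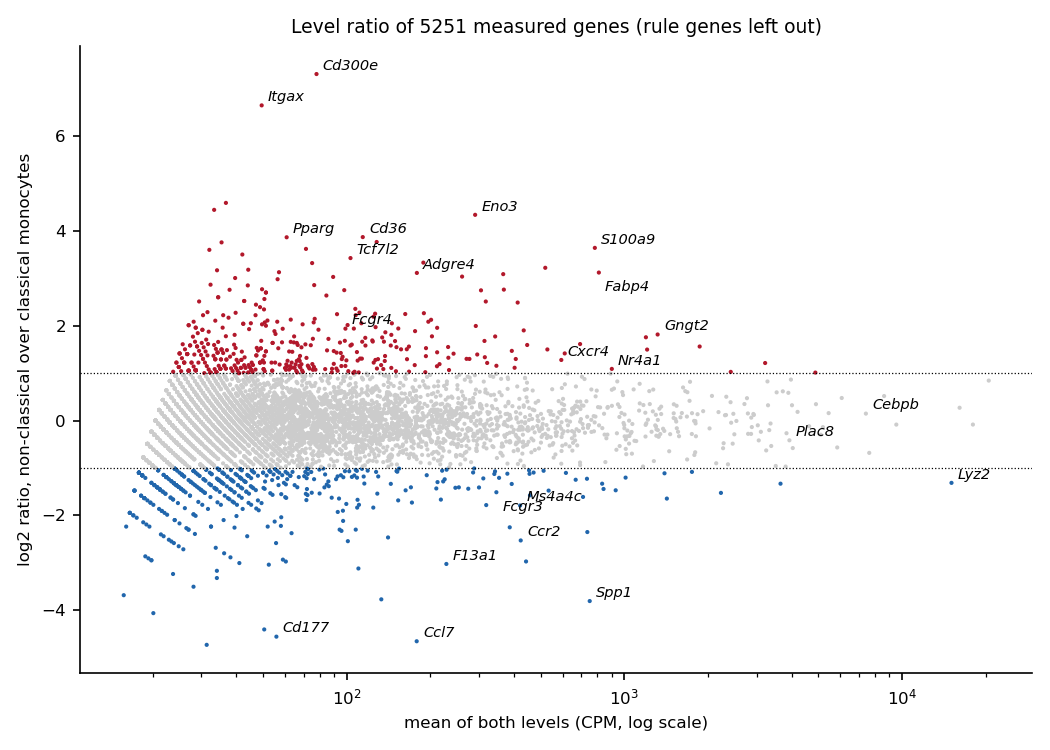
Log2 ratio of non-classical over classical monocytes (vertical) against the mean of both levels in CPM (horizontal, log scale), 1 point per measured gene, with dotted lines at 2-fold. Red points are the 391 higher and blue points the 428 lower genes, and Cd300e stands at 7.31 and Ccl7 at -4.65.

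The gene with the largest ratio was Cd300e, which encodes an activating receptor of the CD300 family on myeloid cells. It had 68 UMIs over 41 members and 1 UMI over 173 classical monocytes, or 155 CPM (120.2 to 196) against 0.974 CPM (0.0247 to 5.43), a 159-fold (27.6 to 6368) higher level. Per member its lowest, median and highest counts were 0, 0 and 4. Next came Itgax, the alpha chain of the integrin CD11c, with 43 UMIs over 31 members and 1 in classical monocytes, at 97.9 CPM (70.8 to 132) against 0.974 CPM (0.0247 to 5.43). Itgax was also present in Cd209a dendritic cells (132 CPM) and natural killer cells (91.0 CPM), whereas Cd300e was at 7.09 and 0 CPM there. Of the 15 genes with the largest ratios, the one found in the most members was Eno3, the beta enolase of glycolysis known mainly from muscle. Eno3 was detected in 70 members with 0, 2 and 10 UMIs in the lowest, median and highest, and in 12 classical monocytes with 0, 0 and 6. Its level was 553 CPM (486 to 627) against 27.3 CPM (18.1 to 39.4), 20.3-fold (13.7 to 31.2) higher, with 10.1 CPM in macrophages and 6.39 CPM in fibroblasts. On GRCm38 the genes lie at chr11:115051917-115062177, minus strand (Cd300e), chr7:128129547-128150657, plus strand (Itgax) and chr11:70657202-70662513, plus strand (Eno3), all protein-coding. Single cells of both groups overlapped for each of these genes, since each was at 0 in some member and in some classical monocyte.

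The transcription start regions of the 3 genes just named and of Cd177, the gene with the third largest ratio on the lower side, are shown because they belong to the ends of the contrast. They run from 250 bases before to 50 bases after the RefSeq start on GRCm38.p6: Cd300e at chr11:115061990-115062289, minus strand, Itgax at chr7:128129300-128129599, plus strand, Eno3 at chr11:70656926-70657225, plus strand and Cd177 at chr7:24760262-24760561, minus strand. Capitals mark matches to CACCC, the core of KLF sites, on either strand.
Cd300e: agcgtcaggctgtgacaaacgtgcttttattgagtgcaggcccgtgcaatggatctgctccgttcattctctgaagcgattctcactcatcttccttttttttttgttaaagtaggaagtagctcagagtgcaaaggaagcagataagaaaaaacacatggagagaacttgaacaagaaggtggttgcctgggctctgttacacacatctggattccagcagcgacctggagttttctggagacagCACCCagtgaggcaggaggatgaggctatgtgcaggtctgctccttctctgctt
Itgax: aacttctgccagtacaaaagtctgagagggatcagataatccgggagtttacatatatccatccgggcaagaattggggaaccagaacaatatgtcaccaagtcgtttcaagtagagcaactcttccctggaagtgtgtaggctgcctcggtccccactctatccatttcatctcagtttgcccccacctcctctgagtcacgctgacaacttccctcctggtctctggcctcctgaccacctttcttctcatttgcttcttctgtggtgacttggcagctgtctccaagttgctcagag
Eno3: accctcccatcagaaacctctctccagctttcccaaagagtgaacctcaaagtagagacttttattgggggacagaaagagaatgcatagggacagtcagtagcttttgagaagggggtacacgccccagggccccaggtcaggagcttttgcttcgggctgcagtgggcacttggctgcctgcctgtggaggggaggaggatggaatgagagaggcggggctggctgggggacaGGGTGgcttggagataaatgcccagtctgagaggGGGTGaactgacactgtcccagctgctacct
Cd177: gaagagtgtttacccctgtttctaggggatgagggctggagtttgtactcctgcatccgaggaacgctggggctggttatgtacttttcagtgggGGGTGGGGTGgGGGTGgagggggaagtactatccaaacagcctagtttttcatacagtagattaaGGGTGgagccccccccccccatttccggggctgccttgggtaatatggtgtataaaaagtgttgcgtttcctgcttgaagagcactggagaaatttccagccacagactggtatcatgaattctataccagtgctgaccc
The motif CACCC had 1 match in Cd300e, 0 in Itgax, 2 in Eno3 and 4 in Cd177, and 57.5% of 32851 promoter windows of 300 bases held at least 1. No match was found in the 4 windows for AAAGGTCA (the NR4A element, in 1.51% of all windows), TTGCNNAA (C/EBP, 10.8%) or GAGGAAGT (SPI1, 3.20%), each searched on both strands. The motifs did not overlap one another in these windows.

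Further leading genes were carried by many members. Cd36, the scavenger receptor for oxidised lipids, was 14.6-fold (8.44 to 27.2) higher (214 against 14.6 CPM, 48 members), and Pparg, the nuclear receptor of lipid handling, 14.6-fold (6.87 to 35.7) higher (114 against 7.79 CPM, 35 members). Macrophages held Cd36 too, at 159 CPM. Bcl2a1a, an anti-apoptotic BCL2 relative, was 13.6-fold (8.22 to 23.9) higher. Its near-identical copies Bcl2a1b (8.52-fold) and Bcl2a1d lay on the same side, and how reads are divided among these copies is uncertain. Tcf7l2, a transcription factor of the Wnt pathway, was 10.8-fold (6.42 to 19.1) higher and Dusp16, a phosphatase of JNK kinases, 10.1-fold (6.94 to 15.01) higher.

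**Figure D2:**
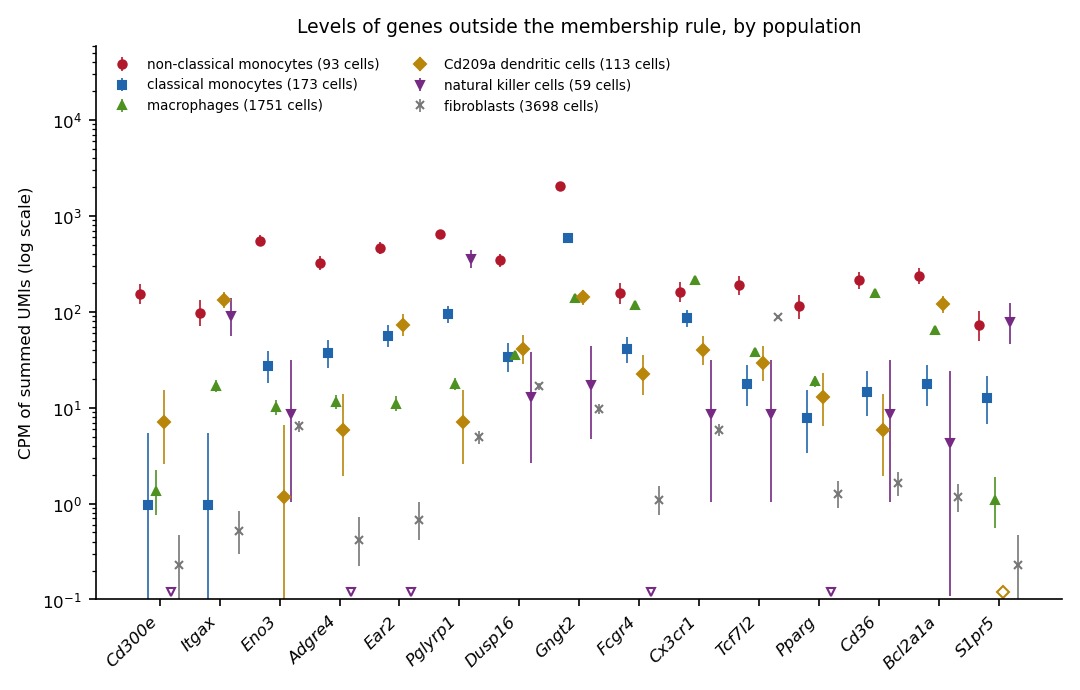
Levels in CPM (log scale) of 15 genes outside the rule in non-classical monocytes and 5 other populations of the pool, with exact Poisson 95% intervals; open symbols at the bottom stand for 0 UMIs. Eno3 lies at 553 CPM in non-classical and 27.3 CPM in classical monocytes, while Itgax lies at 132 CPM in Cd209a dendritic cells and 97.9 CPM in the members.

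Other leading genes rested on few barcodes. Inhba, a subunit of activins, had 100% of its 29 UMIs in 1 member (log2 ratio 3.76, 4.67 without barcodes carrying other lineages' genes and 1.22 without the highest cell of each side), and Serpinb9, an inhibitor of granzyme B, had 85.7% of 28. The laminin gene Lamc1 had 53.8% of its 26 UMIs in 1 member and stood at 776 CPM in fibroblasts. The anti-inflammatory cytokine gene Il10 had 31 UMIs over 8 members. Acod1, the enzyme that makes itaconate, was at 77.4 against 6.82 CPM with 34 UMIs over 11 members. S100a9 and S100a8, the calprotectin subunits, were 12.5-fold and 9.35-fold higher, but without barcodes carrying other lineages' genes their log2 ratios were 0.29 and 0.20. Retnlg, another neutrophil gene, had 55.2% of 58 UMIs in 1 member. Without the same barcodes Il10, Serpinb9, Lamc1, Retnlg and Acod1 held under 30 UMIs over both sides and were not compared. For these genes the value describes a few barcodes and not the members at large.

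**Figure D3:**
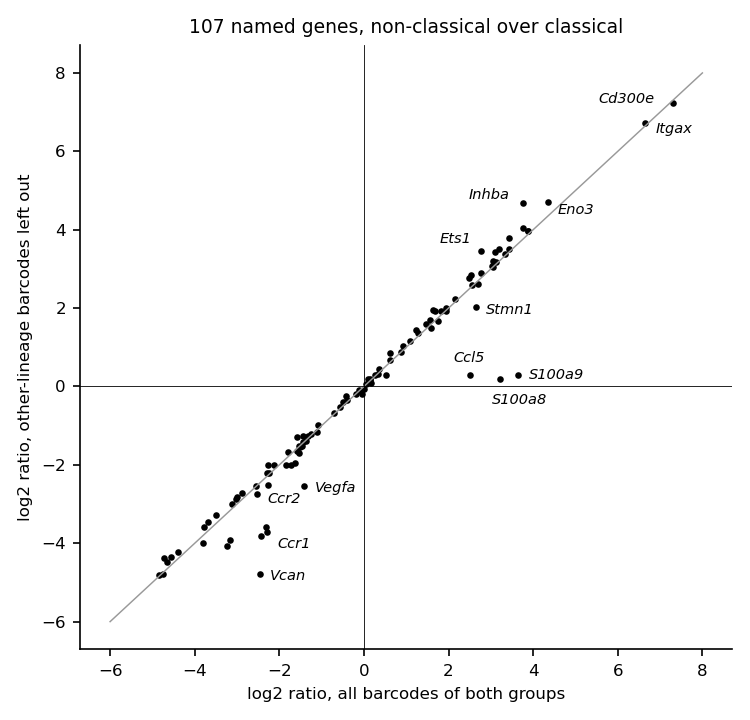
Log2 ratio of non-classical over classical monocytes for 107 named genes, with all barcodes (horizontal) and without the 12 members and 9 classical monocytes that carried other lineages' genes (vertical); the grey line marks equal values. Most genes lie near the line, and S100a9, S100a8 and Ccl5 move from 3.65, 3.22 and 2.51 to 0.29, 0.20 and 0.30.

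On the lower side, the largest ratio belonged to Nrg1, the growth factor neuregulin, with 1 UMI in members and 62 in 31 classical monocytes, 26.5-fold (4.59 to 1064.5) lower. Cd177, a surface protein best known from neutrophils, had 2 UMIs against 110 over 66 classical cells, 23.5-fold (6.36 to 197) lower. Ly6a2, of the Ly6 family whose members share sequence, was 13.6-fold (6.82 to 31.9) lower over 92 classical cells. These genes were spread over many classical monocytes. By contrast, a single classical cell held 86.4% of the classical UMIs of Ccl7, the chemokine that binds CCR2, 80.1% of those of Spp1, or osteopontin, 83.3% of those of the smooth muscle actin Acta2 and 67.9% of those of Gpnmb. Rgs5, a mural cell gene, had 0 UMIs in the members, at least 9.98-fold lower when 0 was set to a floor of 3 UMIs, and 84.3% of its classical UMIs were in 1 cell. Without the highest cell of each side, the log2 ratios of Ccl7, Gpnmb, Acta2 and Rgs5 were -2.04, -1.28, -1.19 and -0.65. For Gpnmb and Rgs5 the members then held no UMI and were set to the floor of 3 UMIs. Whether Rgs5 still reached 2-fold could not be told. Spp1 turned from a log2 ratio of -3.81 to 3.27 when classical monocytes had to hold at least 10 UMIs of Ly6c2 and Chil3. Dmkn (21.2-fold), Itga1 (16.7-fold), Tbxas1 (12.8-fold, thromboxane synthase), Tarm1 (9.41-fold) and Cxcl3 (8.99-fold) were the others of the 15 largest ratios, with Osm and F13a1 described further on. Nrg1, Itga1 and Tbxas1 were each found in 1 member. Without the highest cell of each side they were 7.42-fold, 3.57-fold and 3.85-fold lower, with the members set to the floor of 3 UMIs. Without barcodes carrying other lineages' genes, Tarm1 and Cxcl3 were 16.7-fold and 15.2-fold lower.

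Among 34 measured monocyte transcription factors, 8 were higher (23.5%) and 3 lower (8.82%), with a median log2 ratio of 0.29. The shares over all measured genes, 7.45% higher and 8.15% lower, are the background for this list and each later one. Nr4a1, on which non-classical monocytes are known to depend, was at 1227 CPM (1125 to 1335) against 576 CPM (530.1 to 624), 2.13-fold (1.89 to 2.40) higher, with 0, 5 and 28 UMIs in the lowest, median and highest member. Other populations held it too: fibroblasts stood at 605 CPM and natural killer cells at 797 CPM. Ets1, a lymphoid and endothelial transcription factor, was 6.83-fold (3.56 to 13.98) higher over 20 members, and its log2 ratio was 2.77, or 3.46 without barcodes carrying other lineages' genes. The other higher factors were Nr1h3, Hes1, Bhlhe40, Rel and Pou2f2. The lower side held Cebpa, which drives myeloid commitment, at 22.8 against 58.4 CPM. Cebpb, the most counted gene of the list, was at 7791 against 7027 CPM, a log2 ratio of 0.15.

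Of 20 measured genes of CSF1 receptor signalling and survival, 5 were higher, 0 lower and 15 neither, with a median log2 ratio of 0.27. The higher ones were Bcl2, the near-identical BCL2 relatives Bcl2a1a, Bcl2a1b and Bcl2a1d, and the pro-apoptotic Bbc3. Mcl1, another survival gene, was at 1534 against 1475 CPM with a log2 ratio of 0.06.

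The Fc receptors, which bind antibody, divided. Fcgr4 was 3.84-fold (2.58 to 5.78) higher, while the high-affinity receptor Fcgr1 (36.4 against 158 CPM) was 4.33-fold (2.59 to 7.76) lower and Fcgr3 (179.8 against 512 CPM) 2.85-fold (2.25 to 3.66) lower. Their shared signalling chain Fcer1g was at 5485 against 4310.1 CPM (log2 ratio 0.35). Over the list of 15 measured genes, 3 were higher (Lilra5, Fcgr4 and the kinase Fgr) and 3 lower (Fcgr1, Fcgr3 and Pirb), with a median log2 ratio of 0.25. Reads of Lilra5 and Pirb may be shared with related genes.

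Receptors that steer migration differed most plainly in Ccr2, which brings classical monocytes out of the marrow. Ccr2 was at 125 CPM (94.3 to 163) in members against 722 CPM (671 to 775), 5.76-fold (4.38 to 7.73) lower, with 0, 0 and 11 UMIs in the lowest, median and highest member and 0, 4 and 18 in the classical cells. Most members had no Ccr2 UMI, so the groups differed in their middle but overlapped at the ends. S1pr5, the sphingosine phosphate receptor used to leave the marrow, was 5.75-fold (2.94 to 11.9) higher over 26 members, Ptger4 (a prostaglandin E2 receptor) 4.43-fold higher and Cxcr4, which retains cells in the marrow, 2.43-fold higher (839.8 against 346 CPM). Ccr1 was 4.92-fold lower, and its log2 ratio moved from -2.30 to -3.70 without barcodes carrying other lineages' genes. Of the 16 measured genes of this list, 3 were higher and 6 lower, and the median log2 ratio was -0.29. Cx3cr1 was at 162 CPM (126 to 204) against 85.7 CPM (68.7 to 106), 1.89-fold (1.36 to 2.61) higher and so under the 2-fold mark, and at a log2 ratio of 1.02 without barcodes carrying other lineages' genes.

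Adhesion genes were on the higher side in 6 and on the lower side in 3 of 23 measured genes (median log2 ratio 0.40). Besides Itgax, the higher genes were Pecam1 (50.1 against 8.76 CPM), which holds endothelial and blood cells together, Rap1gap2, Itgav, Itga4 and Apbb1ip. Pecam1 rested on 22 UMIs and held under 30 UMIs over both sides without barcodes carrying other lineages' genes. Itgb7 was 3.31-fold (2.32 to 4.86) lower, at 79.7 against 264 CPM. Rap1b, a small GTPase that switches integrins on, was at 1491 against 968 CPM. Of 34 measured actin and motility genes 2 were higher (5.88%, near the 7.45% of all measured genes) and 0 lower. The higher ones were the kinase Stk10 (3.20-fold) and the myosin Myo1g (2.94-fold). Tmsb4x, which binds actin monomers, was at 17632 against 14599.5 CPM.

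Ace, a gene of the rule, was the reason to list the peptidases that cut vasoactive peptides. Of the other 15 on the list, 4 reached 30 UMIs over both sides. Cpd, a carboxypeptidase, was 6.08-fold higher with 26 UMIs and held under 30 UMIs over both sides without barcodes carrying other lineages' genes, and Lnpep, an aminopeptidase that cuts angiotensin peptides and oxytocin, was at 148 against 80.8 CPM. Ace was also found in fibroblasts (286 CPM). For neurotensin, the peptide encoded by Nts and the target of the study's knockout, the members held 3 UMIs and the classical monocytes 1. The receptors Ntsr1 and Ntsr2 had 0 UMIs on both sides, and a floor of 3 UMIs is 6.83 CPM in the members. Sort1, whose product sortilin is a further neurotensin receptor, stood at 13 UMIs against 18 (log2 ratio 0.76). No statement on the knockout follows from these counts, because cells were not tied to mice.

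**Figure D4:**
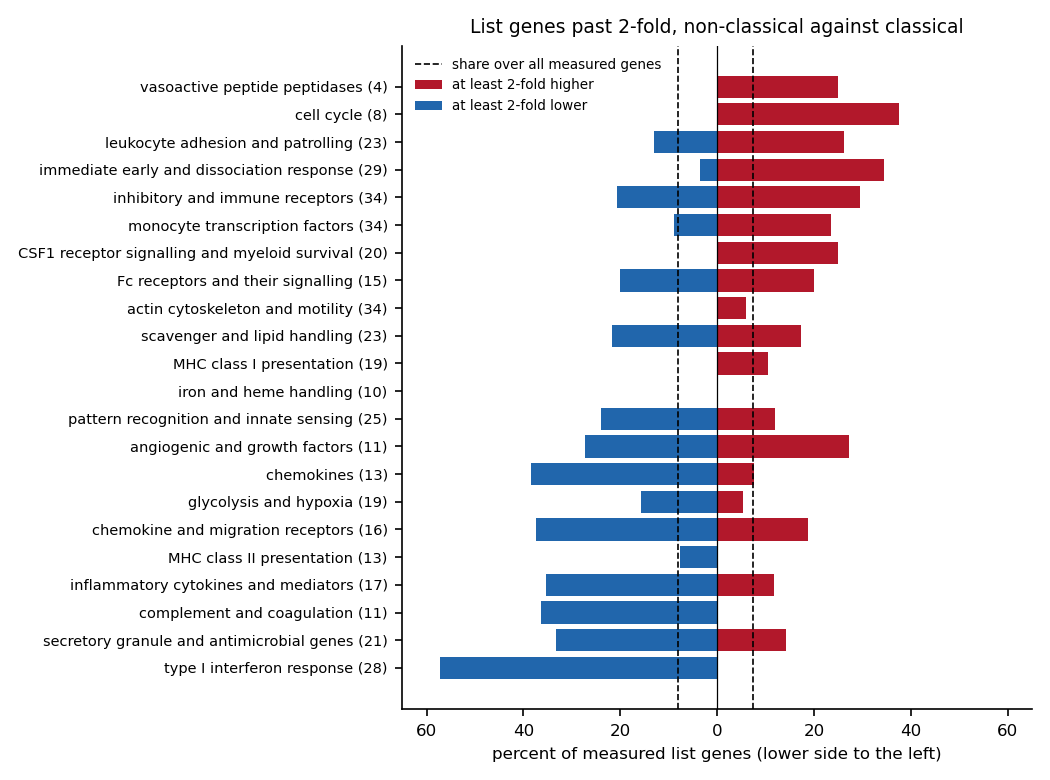
Percent of the measured genes of each functional list at least 2-fold higher (red, to the right) and at least 2-fold lower (blue, to the left) in non-classical monocytes, with the number measured in parentheses; dashed lines give the shares over all measured genes, 7.45% and 8.15%. The type I interferon list reaches 57.1% on the lower side with 0 higher, and the immediate early list 34.5% on the higher side.

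The type I interferon response genes lay lowest. Of 28 measured, 0 were higher and 16 lower (57.1%, against 8.15% of all measured genes), and their median log2 ratio was -1.32 beside -0.03 over all. Summed over the list the level was 11823.5 against 18946 CPM. Ifi209, an interferon-induced nuclear protein, was at 31.9 against 157 CPM, 4.92-fold (2.85 to 9.20) lower. Ms4a4c was at 189 against 653 CPM and 3.46-fold (2.75 to 4.40) lower, and this gene is also a classical monocyte marker. The most counted gene, Ifitm3, which blocks viral entry, was at 4711 against 6973 CPM with a log2 ratio of -0.57. Ifit3 had a log2 ratio of -2.44, or -3.81 without barcodes carrying other lineages' genes. The lower group also held Rsad2, Oasl2, Irf7, Stat2, Bst2 and Isg15. Over the other settings of the analysis the list had 0 higher and 10 to 21 lower.

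Innate sensing genes were mixed, with 3 higher and 6 lower of 25 measured (median log2 ratio 0.02). These are 12% and 24%, against 7.45% and 8.15% of all measured genes. Pglyrp1, a peptidoglycan-binding protein, was at 642 CPM (569 to 721) against 94.5 CPM (76.6 to 115), 6.79-fold (5.38 to 8.65) higher, with 0, 2 and 15 UMIs in the lowest, median and highest member. Natural killer cells also held it (359.6 CPM). Irak3, which restrains Toll-like receptor signalling, was 2.34-fold higher. Cd14, the lipopolysaccharide co-receptor, was at 1149 CPM (1051 to 1254) against 3305 CPM (3195 to 3418), 2.88-fold (2.62 to 3.16) lower. Sting1, the sensor of cyclic dinucleotides, was 4.78-fold lower and Clec4a2 3.57-fold lower.

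Granule and antimicrobial genes were lower in 7 and higher in 3 of 21 measured, a median log2 ratio of -0.60. The higher ones were S100a8 and S100a9, described above, and Ear2, an eosinophil-associated ribonuclease whose near-identical relatives make the assignment of its reads uncertain. Ear2 was at 464 CPM (403 to 533) against 56.5 CPM (42.9 to 73.0), 8.22-fold (6.11 to 11.2) higher. Lyz2, lysozyme, was at 8651 CPM (8378 to 8930.3) against 21484 CPM (21202 to 21769.8), 2.48-fold (2.40 to 2.57) lower, and each member held it, with 2, 25 and 182 UMIs in the lowest, median and highest. Mmp8, neutrophil collagenase, was 8.02-fold lower and Prtn3, a granule protease, 7.38-fold lower. Without barcodes carrying other lineages' genes, 1 gene of this list was higher and 8 lower.

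Of 17 measured cytokines and mediators, 2 were higher and 6 lower (median log2 ratio -0.31). Tnf was at 179.8 CPM (142 to 224) against 53.6 CPM (40.3 to 69.7), 3.36-fold (2.35 to 4.83) higher, over 20 members. Osm, a cytokine of the interleukin-6 family, was 8.69-fold (4.63 to 18.4) lower (22.8 against 198 CPM). Il1b was at 3057 against 2772 CPM, a log2 ratio of 0.14, and so close to equal. Among 13 chemokines, Ccl5 was the 1 higher gene (5.71-fold), a share of 7.69% against 7.45% of all measured genes. The log2 ratio of Ccl5, 2.51, was 0.30 without barcodes carrying other lineages' genes and -0.71 without the highest cell on each side. The 5 lower were Ccl7, Cxcl3, Ccl2, Ccl9 and Ccl6, while Cxcl2, the most counted, was at 2387 against 2461 CPM.

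Lipid and scavenger genes split as 4 higher and 5 lower of 23 measured, with a median log2 ratio of 0.18. Beside Cd36 and Pparg, Fabp4, the fatty acid-binding protein of adipocytes, macrophages and capillary endothelium, was at 1452 CPM (1342 to 1569) against 167 CPM (142 to 193), 8.72-fold (7.35 to 10.4) higher. It was chosen for mention after its values were seen. Fabp4 had 638 UMIs over 60 of the 93 members, and stood at 41.8 CPM in macrophages and 34.6 CPM in fibroblasts. Of other endothelial genes, Pecam1 had 22 UMIs in the members (5.71-fold higher), Kdr, Emcn and Tek had 1, 2 and 1 UMIs, and Prox1 and Flt4 had 0. Their part in the Fabp4 level was not tested. The lower genes were Gpnmb, Nceh1 (4.81-fold, a cholesterol ester hydrolase), Trem2, Lpl and Msr1. Apoe was at 1848 against 1656 CPM.

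For class II antigen presentation, 0 of 13 measured genes were higher and 1 lower (Ifi30, a lysosomal reductase, 2.77-fold), and Cd74, the invariant chain, was at 10153 against 7084 CPM (log2 ratio 0.52). The class II counts changed with the choice of cells: 4 were higher and 1 lower against classical monocytes of at least 10 UMIs of Ly6c2 and Chil3, and 0 higher and 4 lower for members with at least 3 of the 4 positive genes. For class I, 2 of 19 were higher (10.5%, against 7.45% of all measured genes) and 0 were lower. The higher ones, H2-Q6 (4.04-fold) and H2-Q7 (3.00-fold), are closely related copies and may share reads. H2-Q7 had a log2 ratio of 0.99 with cells thinned to 2500 UMIs. H2-D1 was at 4465 against 3564 CPM.

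Complement and coagulation genes held 0 higher and 4 lower of 11 measured. F13a1, the coagulation factor XIII subunit, was at 50.1 CPM (31.4 to 75.8) against 407 CPM (369 to 448), 8.13-fold (5.30 to 13.1) lower, in 11 members and 124 classical monocytes. Cfp, properdin, was 5.83-fold (3.32 to 11.2) lower. Of 19 glycolysis and hypoxia genes, Eno3 was the 1 higher (5.26%, against 7.45% of all measured genes). Slc2a1 (the glucose transporter GLUT1, 3.09-fold), Ldhb (3.00-fold) and Vegfa (2.65-fold) were lower (15.8%, against 8.15%). Gapdh was at 1222 against 1388 CPM. The log2 ratio of Vegfa was -1.41, and -2.54 without barcodes carrying other lineages' genes. Of 10 iron genes 0 were higher and 0 lower, and ferritin heavy chain Fth1 was at 17481.5 against 18509 CPM.

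Immediate early genes, which respond quickly to stimuli and also to tissue digestion, were higher in 10 and lower in 1 of 29 (34.5% and 3.45%, against 7.45% and 8.15% of all genes), with a median log2 ratio of 0.39. Zfp36l1, which speeds mRNA decay, was at 701 against 125 CPM, 5.62-fold (4.56 to 6.97) higher. Hspa1a, an inducible heat shock protein, was at 4506 against 2935 CPM (log2 ratio 0.62), and Ier3 was 2.72-fold lower. Both kinds of monocytes went through the same digestion, and its part in these values was not tested. Of 8 measured cell cycle genes, 3 were higher and 0 lower. They were Stmn1, which destabilises microtubules (6.23-fold), the cell cycle brake Rb1 (2.74-fold) and Ccnd2, and the log2 ratio of Stmn1 was 2.64, or 2.02 without barcodes carrying other lineages' genes, 0.97 with a C1q sum under 3 and 0.87 with lymphocyte genes at 0. Of 11 growth factor genes, 3 were higher, with Tgfbr1 at 93.3 against 24.3 CPM and Gdf15 at 100.1 against 32.1 CPM, and 3 lower, with Tgfbi at 396 against 939.7 CPM.

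Immune receptors were higher in 10 and lower in 7 of 34 measured, with a median log2 ratio of 0.35. After Cd300e, the largest ratio belonged to Cd274, the checkpoint ligand PD-L1, at 88.8 CPM (63.1 to 121) against 13.6 CPM (7.45 to 22.9), 6.51-fold (3.46 to 12.98) higher over 26 members. The higher group also held Cd300ld, Trem3, Cd9, Lair1, Havcr2, Cd300c2, Clec2d and Slamf9. Lgals9, galectin-9, was 2.90-fold lower, and the surface protein gene Emb 2.71-fold lower. The adaptor Tyrobp was at 4438 against 4816 CPM.

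Without barcodes carrying other lineages' genes, several list counts shifted by a few genes. Type I interferon genes were then 0 higher and 17 lower of 27, complement genes 0 higher and 5 lower of 11, and class II genes 0 higher and 2 lower of 13, with H2-DMa added. Class I genes were 1 higher of 18, without H2-Q6, and lipid genes 3 higher and 5 lower of 22, without Pltp. Hmox1, heme oxygenase, became the 1 higher of 9 iron genes. The 3 higher cell cycle genes then held Cdkn1b in place of Ccnd2, and immediate early genes were 9 higher and 1 lower of 29. Immune receptors were 11 higher and 7 lower of 34.

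Depth differed between the sets, with a median of 4272 UMIs per member, 5659 per classical monocyte and 7847.5 per fibroblast, so shares of cells with a UMI were taken after each cell had been thinned to 2500 UMIs. No cell was shallower than that, and fibroblasts and macrophages were each represented by a random 1000. Eno3 was then found in 61.3% of members (75.3% before thinning) and 4.62% of classical monocytes, against 0.900% of fibroblasts, which should lack it. Cd300e was found in 34.4% of members and 0 of 173 classical monocytes, which allows a share of up to 1.73% of cells with a UMI (3 of 173), with 1 such cell before thinning, and in 0.100% of fibroblasts. Cd36 was found in 37.6% of members, 3.47% of classical monocytes and 0.600% of fibroblasts, but also in 26.6% of macrophages. Ccr2 ran the other way, with 18.3% of members, 69.9% of classical monocytes and 0.400% of fibroblasts. For Tcf7l2, 34.4% of members stood against 2.31% of classical monocytes but 17.7% of fibroblasts.

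The higher genes were found together in the same cells. Of the 12 genes Eno3, Cd300e, Itgax, Adgre4, Pglyrp1, Ear2, Tcf7l2, Cd36, Pparg, Bcl2a1a, Dusp16 and Fcgr4, none of them in the rule, the lowest, median and highest member held 0, 7 and 11. At least 4 were held by 74 members (79.6%), 6.94% of classical monocytes, 9.14% of macrophages, 8.85% of Cd209a dendritic cells and 0.216% of fibroblasts. The set was chosen for being higher in the members, so it describes their overlap and tests nothing.

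Class II genes varied among the members themselves. Summed over Cd74 and the 8 H2 genes of the class II list, the lowest, median and highest member held 0, 9 and 788 UMIs, and 28 of the 93 members stood above 10000 CPM and held 89.9% of the members' class II UMIs. Above that level were 10 of 20 members with 2 positive genes, 14 of 39 with 3 and 4 of 34 with all 4. The level was chosen after the values were seen: 38 members stood above 5000 CPM and 20 above 20000, so 18 lay between. Whether the members above 10000 CPM are a cell type of their own was not tested. The median C1q sum was 0 UMIs in the upper set and 1 in the lower. Classical monocytes were divided too, with 32 of 173 above 10000 CPM.

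The 65 members at or under 10000 CPM of class II had more Fabp4, 2044 CPM (1883 to 2214) against 273 CPM (195 to 371) in the 28 others, a 7.50-fold higher level. The size of this gap depended on the barcodes and the level: it was 37.2-fold without barcodes carrying other lineages' genes, 2.51-fold at 5000 CPM and 13.8-fold at 20000 CPM. Pglyrp1 was also higher in the lower set, 878 against 170.3 CPM (5.16-fold, or 2.21-fold at 5000 CPM), as were Cd300e (208 against 47.7 CPM) and Pparg (154 against 34.1 CPM). Cd300e was 4.37-fold higher there, or 11.6-fold without barcodes carrying other lineages' genes, and Pparg 4.51-fold, or 2.63-fold at 5000 CPM. The upper set held more Ccr2, 252 against 61.5 CPM, or 4.10-fold, which was 6.14-fold at 5000 CPM and at 20000 CPM 1.89-fold (0.894 to 3.79) without barcodes carrying other lineages' genes. Plac8 was at 4456 against 2823 CPM, 1.58-fold, and 1.12-fold (0.994 to 1.26) at 20000 CPM. Il1b was at 3046 CPM in the upper and 3062 CPM in the lower set. Eno3 was 1.40-fold (1.05 to 1.90) higher in the lower set, but 1.17-fold (0.900 to 1.52) at 5000 CPM and 1.17-fold (0.852 to 1.62) at 20000 CPM. The part of called doublets, 1 in each set, was not tested.

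**Figure D5:**
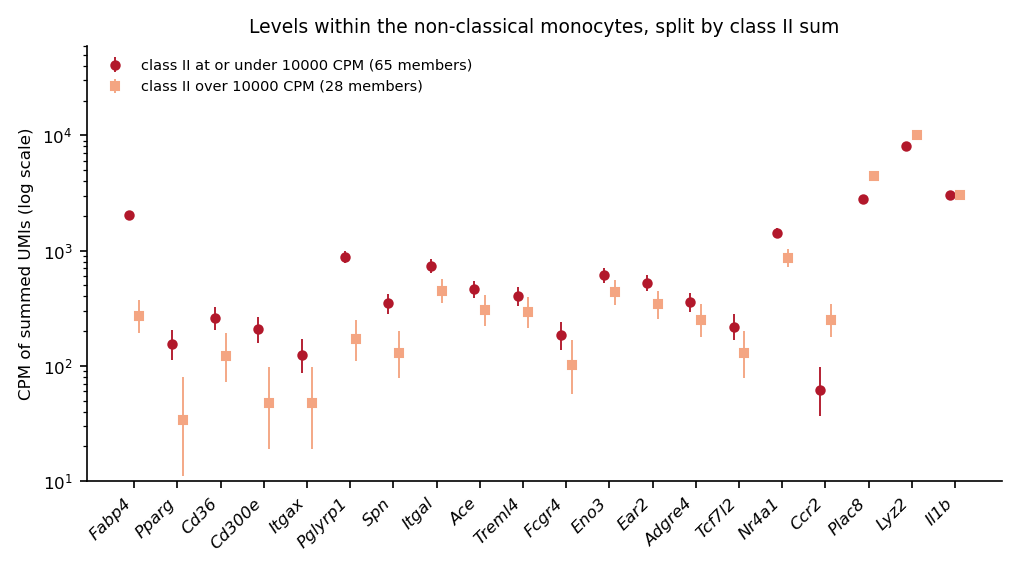
Levels in CPM (log scale) of 20 genes in the 28 members above and the 65 members at or under 10000 CPM of class II genes, with exact Poisson intervals. Fabp4 lies at 273 and 2044 CPM, and Ccr2 at 252 and 61.5 CPM.

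Other genes were uneven as well. In the 81 members without other lineages' genes, thinned to equal depth, 642 genes had at least 50 UMIs, the median ratio of variance to mean was 1.28, and it exceeded 3 in 78 genes. The ribosomal RNA gene Rn18s-rs5 had the highest ratio, 207, with 64.9% of its UMIs in 5 cells, and Ccl4 and Cd74 followed at 44.5 and 44.1. Ccl4, an inflammatory chemokine, had 74% of its 200 UMIs in 5 cells, and Slpi, an inhibitor of neutrophil proteases, 77.9% of 77. Cxcl2 had 57.5% of 445 in 5 cells and a median of 0. By comparison Lyz2 was present in all 81, with a median of 17 and a highest count of 88 UMIs.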

How the data were processed

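One gene expression library of a pool of heart cells from 3 control and 4 Nts knockout mice was analysed; the hashtag library was not analysed here. The deposited matrix holds whole-number UMI counts per gene and barcode, without normalization, for 56954 features. Per the submitters' processing notes, STARsolo, Scanpy and mm10 were used; their settings, and whether strand was used, are not given in the sources used here. All 9369 barcodes entered. Members and the reference populations were chosen on raw counts; macrophages, Cd209a dendritic cells, natural killer cells (59) and fibroblasts (3698) were set by C1q, Cd209a, Ncr1 and Pdgfra in the same way. Counts were summed over cells and scaled to CPM, and genes with at least 30 UMIs over both sides were compared. Ratios carry exact binomial 95% intervals and levels exact Poisson ones, for counting error only. A side at 0 was set to a floor of 3 UMIs. Doublets (Scrublet) were called but kept. Named genes were the 15 largest ratios on each side (mitochondrial, ribosomal and predicted genes left out), 2 per list and side, the most counted gene of each list, and the monocyte markers. The members and lists were chosen with earlier results of these data known. There were 14 alternatives and 3 added ones: called doublets removed; at least 3 markers; Itgal not counted; C1q sum under 3; Ly6c2 and Chil3 at 0; lymphocyte genes at 0; classical monocytes with at least 10 UMIs of Ly6c2 and Chil3, or with Ccr2 and under 2 markers; gene minimums of 10 and 100 UMIs; equal cell weights; totals without ribosomal, mitochondrial and haemoglobin genes; thinning; an interval beyond 1; and those added after seeing the data, which the closing section names. Promoters are from RefSeq on GRCm38.p6 and gene positions from GENCODE M21 on GRCm38, which held 52029 of the features. Clusters came from 2000 variable genes, 30 principal components, 15 neighbours and Leiden resolution 1. Python 3.11.15, numpy 2.4.6, scipy 1.17.1, pandas 2.3.3, scanpy 1.11.5 and matplotlib 3.10.9 were used. The interval code was tested on summed counts simulated without variation between cells. That test does not cover genes that were uneven among cells.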

Additional observations from a re-analysis of the deposited data

How the results depend on the processing

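No paired analysis was possible because both groups of cells come from 1 library. Over 17 alternatives the members numbered 66 to 93. Genes at least 2-fold higher and lower (391 and 428) numbered 852 and 930 with at least 10 UMIs per gene, 127 and 138 with at least 100, and 252 and 274 with each cell thinned to 2500 UMIs; the other alternatives stayed within 1.5 times. Leaving out the highest cell of each gene gave 370 and 588, so 38.6% of called genes were higher, against 47.7%, and moved the median log2 ratio to -0.11. Of 95 named genes at least 2-fold apart, 86 stayed so and 93 kept their direction in each alternative where they reached the UMI minimum. An alternative in which a gene fell under that minimum, as for Retnlg, Acod1 and Lamc1 above, was skipped. The 95 include Ace, Treml4, Spn, Itgal, Ly6c2 and Chil3, whose differences were set by the rule and support nothing. Inhba counts as kept, although its value without the highest cell came from the floor of 3 UMIs. Spp1 reversed to 3.27 with classical monocytes of at least 10 UMIs of Ly6c2 and Chil3. Ccl5 reversed to -1.09 with at least 3 of the 4 genes, -1.14 without counting Itgal, -1.29 with a C1q sum under 3 and -0.71 without the highest cell. The causes were not tested. Leaving out barcodes with other lineages' genes, leaving out the highest cell and centring the median were chosen after seeing the data; without those barcodes 366 genes were higher and 453 lower, 287 and 355 of them shared. Depth limits low genes: with 439379 UMIs in the members, 3 UMIs correspond to 6.83 CPM. No result can be extended beyond this pool, since no replicate measures spread between mice.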
